A study of Mus musculus with 24 samples.

Results

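The 44 collagen genes are described here, chosen as the protein-coding genes whose symbol in the GENCODE M21 annotation of the mouse genome build GRCm38 is Col, a number, a and a number. They are 44 of the 49315 genes listed for each library. The libraries come from primary astrocytes of the cortex of C57BL/6J wild-type mouse embryos at E18.5, with the meninges removed, the cortices of the embryos of a pregnant mouse pooled, and the cells used at passage 1 in MEM with 10% FBS. The cells received 0 Gy (mock), 0.1 Gy or 2 Gy of 200 kV X-rays and were lysed for RNA after 6 h or 24 h, which gives 6 groups of 4 libraries, and polyadenylated RNA was sequenced. The labels number the libraries of a group from 1 to 4, and the 3 doses of a time share these replicate numbers. Dose comparisons at a given time share their mock libraries.

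Collagens are extracellular proteins built from chains that wind around each other into a helix, and the chains are modified in the endoplasmic reticulum, secreted, trimmed and cross-linked. Fibrillar collagens form fibrils, type IV collagen forms the network of basement membranes, and FACIT collagens (fibril-associated collagens with interrupted triple helices) decorate fibrils. In the brain, collagens are found mainly in the meninges and in the basement membrane of vessels, to which astrocyte endfeet are attached. Astrocytes in culture are known to deposit matrix.

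The sequences before the genes' starts are shown for members that the results turn on, since *Col4a3* and *Col4a4* are neighbours that were both highest in replicate 2, *Col3a1* differed widely between replicate numbers and *Col18a1* had the lowest adjusted p at 24 h after 2 Gy when libraries were paired. They are printed 5′ to 3′ on the strand of the gene named, from RefSeq's promoter table for GRCm38.p6, and end before the gene's own span. The capitals mark matches, on either strand, to 4 short motifs that were searched separately. The TATA box was searched as TATAAA. For the GC box the letters GGGCGG were used. The CCAAT box has its letters in its name. An AP-1 site was searched as TGANTCA, with N for any base.
Between Col4a4 and Col4a3, chr1:82586850-82586920, minus strand: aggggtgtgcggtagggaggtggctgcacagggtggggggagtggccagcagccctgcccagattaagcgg
Col3a1, chr1:45311288-45311537, plus strand: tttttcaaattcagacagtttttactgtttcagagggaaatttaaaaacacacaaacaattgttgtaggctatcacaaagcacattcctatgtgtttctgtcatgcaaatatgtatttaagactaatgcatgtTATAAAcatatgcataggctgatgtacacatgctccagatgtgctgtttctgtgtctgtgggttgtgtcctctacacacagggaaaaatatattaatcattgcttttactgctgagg
Col18a1, longer transcript, chr10:77166549-77166780, minus strand: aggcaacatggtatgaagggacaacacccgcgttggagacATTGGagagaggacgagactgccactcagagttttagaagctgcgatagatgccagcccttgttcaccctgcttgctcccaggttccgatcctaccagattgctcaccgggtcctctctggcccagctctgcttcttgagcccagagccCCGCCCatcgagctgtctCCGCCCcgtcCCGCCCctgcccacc
*Col4a3* and *Col4a4* are transcribed away from each other, and only these 71 bases, of which 69.0% are G or C, lie between their spans. The bases before *Col3a1* held 35.2% G or C and a TATA box, while those before the longer transcript of *Col18a1* held 60.8% G or C, GC boxes and a CCAAT box. The 250 bases before a further start of *Col18a1*, at chr10:77113706-77113955, held 57.6% G or C and none of the 4 motifs. Over the 250 bases before the start, a GC box was found in 22 of 38 promoters of collagen genes (57.9%, from 35 members that matched the table) and in 32.7% of all 32851 promoters. A TATA box was found in 13.2% and 12.4%, a CCAAT box in 34.2% and 33.9% and an AP-1 site in 2.63% and 6.75%, respectively.

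Libraries held between 14742855 and 38194800 counts in total. Markers of astrocytes were abundant, with a summed level of the 12 genes between 2461 and 3523 CPM (counts scaled to a common library size), but *Gjb6* did not exceed 0.450 CPM. The 12 microglial markers summed to between 1986 and 3197 CPM in the libraries of replicates 1, 3 and 4 and to between 330 and 377 CPM in all 6 libraries of replicate 2. Endothelial markers were at 11.3 to 43.4 CPM in sum, with *Cldn5* at 0 counts in 21 and *Tie1* in 19 of the 24 libraries. Of 12 fibroblast and meningeal markers, *Fn1* was at 1478 to 3920 CPM and the other 11 together at 24.6 to 62.2 CPM, with *Lum* at 0 in 6 and *Dpt* in 12 libraries. Mural markers summed to between 3847 and 8438 CPM, mostly *Acta2* and *Tagln*, with *Pdgfrb* at 45.5 to 78.5 and *Cspg4* at 12.5 to 131 CPM, while *Kcnj8* was at 0 in 14 libraries. Oligodendrocyte markers were at 344 to 829 CPM and neuronal markers at 405 to 728 CPM in sum. In each of these lists 5 of 10 genes had a median under 1 CPM. As these are bulk libraries, fewer cells of a type and less RNA per cell cannot be told apart.

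The astrocyte cultures expressed a wide set of collagens, in which fibrillar and basement membrane chains made up most of the RNA. Levels of different genes are compared in RPKM, which is CPM per kilobase of gene length. Averaged over the 24 libraries, 13 of the 44 members were above 10 RPKM and 17 were below 1 RPKM. The 10 members with the highest means held 85.0% of the summed mean RPKM of collagens. The 11 fibrillar members made up 40.5% of the collagen RPKM (31.2 to 47.9% in single libraries), the 6 type IV chains 26.5% (21.3 to 30.2%) and the 3 short-chain network members of types VIII and X 19.01% (15.3 to 23.8%). The 9 FACIT members added 8.46%, the multiplexins *Col15a1* and *Col18a1* 2.69%, the 6 type VI chains 2.45%, *Col7a1* 0.263%, the 4 transmembrane collagens 0.161% and the other 2 members 0.0271%.

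**Figure D1:**
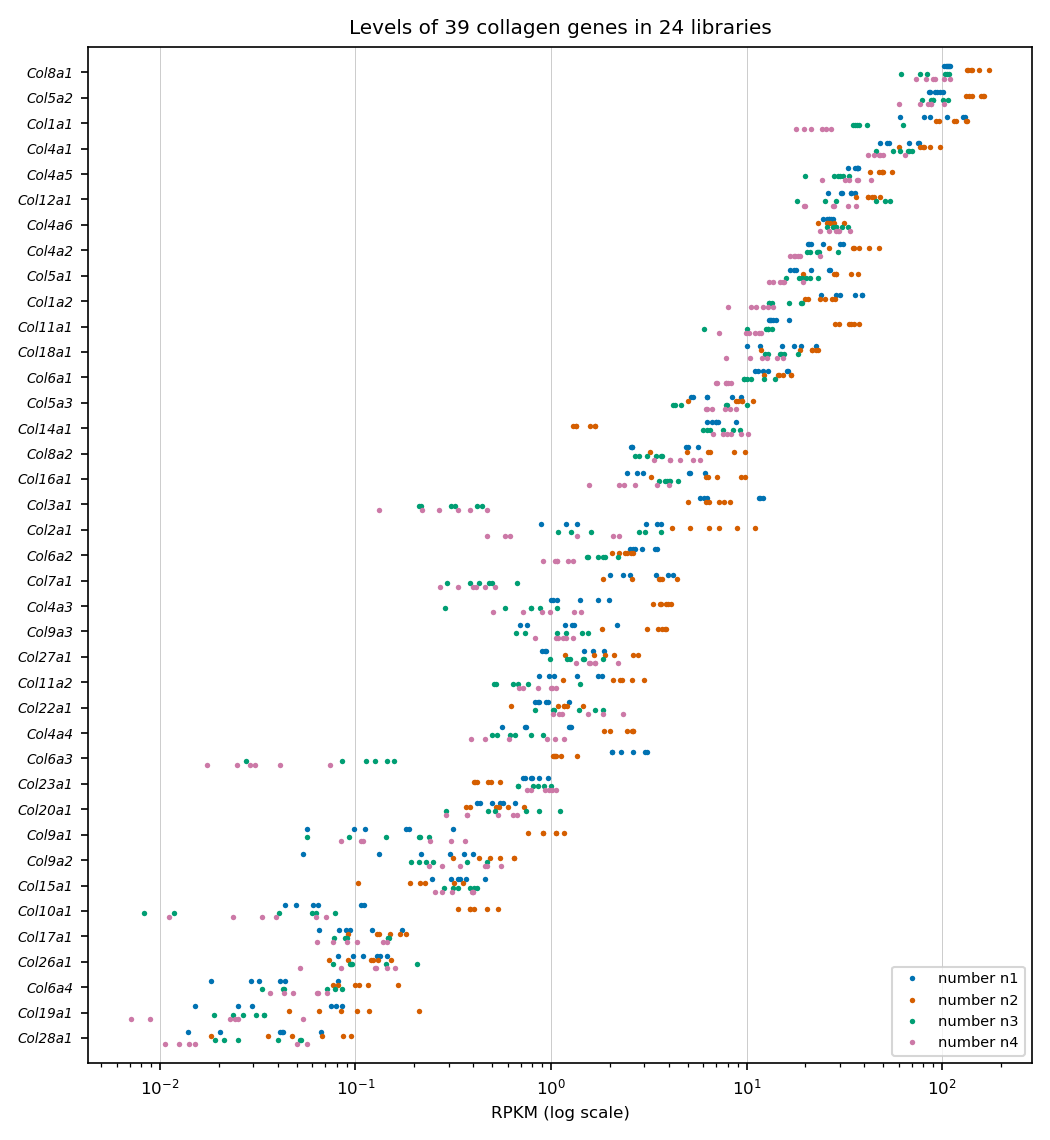
RPKM (log scale) of the 39 collagen genes that had at least 1 count in every library, ordered by their mean, with a point for each of the 24 libraries coloured by replicate number. *Col8a1*, *Col5a2* and *Col1a1* have the highest means, and the points of *Col3a1*, *Col6a3*, *Col7a1* and *Col14a1* separate by replicate number.

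The highest mean was that of *Col8a1*, a chain of the short-chain network collagen VIII, with 109 RPKM over the 24 libraries. *Col5a2* followed with 104 RPKM, *Col1a1* with 69.3, *Col4a1* with 63.3, *Col4a5* with 37.0, *Col12a1* with 34.8, *Col4a6* with 27.7, *Col4a2* with 26.1, *Col5a1* with 21.4 and *Col1a2* with 21.01. The ranges over libraries overlapped between neighbours in this order, for example 61.3 to 174 RPKM for *Col8a1* and 59.8 to 164 RPKM for *Col5a2*. Values below are CPM in the order of replicates 1, 2, 3 and 4.

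*Col8a1* was at 549, 728, 557 and 423 CPM in mock cells at 6 h, at 542, 685, 539 and 562 after 0.1 Gy and at 557, 696, 530.0 and 519.8 after 2 Gy. At 24 h it was at 552, 888, 428 and 457 in mock cells, at 525, 714, 395 and 377 after 0.1 Gy and at 534, 787, 313 and 472 after 2 Gy. Replicate 2 was the highest in each of these groups, and the doses overlapped. *Col12a1*, a FACIT that binds to type I fibrils, was at 544, 669, 819.6 and 301 CPM in mock cells at 6 h, at 522, 637, 698 and 501 after 0.1 Gy and at 519.8, 682, 781 and 549 after 2 Gy. At 24 h the values were 468, 729, 438 and 425 in mock cells, 461, 554, 384 and 299 after 0.1 Gy and 395, 639, 275 and 423 after 2 Gy. Replicate 3 had the highest *Col12a1* level at 6 h, whereas replicate 2 had it at 24 h.

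Among the fibrillar collagens, *Col5a2*, a chain of type V collagen that takes part in the start of fibrils, was at 906, 1543, 836 and 574 CPM in mock cells at 6 h, at 832, 1367, 866 and 814 after 0.1 Gy and at 964, 1276, 755 and 739 after 2 Gy. After 24 h its levels were 936, 1316, 1032 and 842 in mock cells, 821, 1508, 969 and 837 after 0.1 Gy and 882, 1569.5, 857 and 984 after 2 Gy. The partner chain *Col5a1* was about 5 times lower per length, as given below. It was at 224, 316, 179 and 132 CPM in mock cells at 6 h, at 180.4, 291, 171 and 166 after 0.1 Gy and at 227, 244, 158 and 126 after 2 Gy. Its levels at 24 h were 142, 165, 196 and 110.3 in mock cells, 152, 244, 164 and 116 after 0.1 Gy and 149, 237, 134 and 129.9 after 2 Gy. In both genes the ranges of the 3 doses overlapped at each time.

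*Col1a1*, the main chain of type I collagen, was at 834, 879.5, 242 and 159 CPM in mock cells at 6 h, at 691, 753, 245 and 178 after 0.1 Gy and at 857, 611, 229 and 118 after 2 Gy. At 24 h it was at 400.2, 632, 416 and 129 in mock cells, at 532, 864, 270.4 and 166 after 0.1 Gy and at 569, 768, 234 and 140.2 after 2 Gy. Replicates 1 and 2 were above replicates 3 and 4 in every group except mock cells at 24 h, where replicate 3 was above replicate 1. *Col1a2*, the other type I chain, was at 485, 353, 168 and 138 CPM in mock cells at 6 h, at 444, 293, 162 and 169 after 0.1 Gy and at 483, 258, 162 and 99.5 after 2 Gy. Its 24 h levels were 299.7, 246, 238 and 131 in mock cells, 357, 339, 237 and 160.3 after 0.1 Gy and 373, 312, 206 and 151 after 2 Gy. Replicate 1 had the highest *Col1a2* level in all 6 groups.

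Type IV collagen was present with all 6 chains. *Col4a1*, which with *Col4a2* forms the common network of basement membranes, was at 567, 729.6, 523 and 373 CPM in mock cells at 6 h, at 503, 649, 498 and 482 after 0.1 Gy and at 564, 574, 455 and 359.6 after 2 Gy. At 24 h, 358, 450.5, 508 and 313 CPM were measured in mock cells, 399.6, 601, 419.7 and 334 after 0.1 Gy and 389.5, 598, 343 and 355 after 2 Gy. *Col4a2* lies head to head with *Col4a1* on chromosome 8, their spans overlapping by 22 bases. It was at 199.7, 316, 155 and 123 CPM in mock cells at 6 h, at 163, 280.4, 154 and 157 after 0.1 Gy and at 207, 234, 139.8 and 116 after 2 Gy. The 24 h libraries held 138, 174, 193 and 111 CPM in mock cells, 142, 248, 152 and 121 after 0.1 Gy and 136, 232, 135 and 117 after 2 Gy. Replicate 2 was the highest for both genes in every group but mock cells at 24 h, where it was replicate 3.

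*Col4a5* and *Col4a6* form a second such pair, on chromosome X. *Col4a5* was at 246, 337, 208 and 164 CPM in mock cells at 6 h, at 249.5, 331, 198 and 246 after 0.1 Gy and at 239.9, 318, 187 and 214 after 2 Gy. At 24 h it was at 245, 288, 223 and 250.04 in mock cells, at 222, 331, 201 and 225 after 0.1 Gy and at 249.9, 372, 133 and 290.0 after 2 Gy. *Col4a6* had the narrowest range over libraries among the 10 highest members. It was at 219.8, 214, 228 and 189 CPM in mock cells at 6 h, at 212, 207, 205 and 236 after 0.1 Gy and at 211, 206, 221 and 210.0 after 2 Gy. The levels at 24 h were 205, 186, 264 and 233 in mock cells, 195, 224, 244 and 228 after 0.1 Gy and 215, 252, 228 and 269 after 2 Gy. No dose stood apart from the others in either gene.

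At the low end, *Col24a1*, *Col6a5*, *Col25a1*, *Col13a1* and *Col6a6* had at least 1 library with 0 counts. *Col13a1* had 0 counts in 17 and *Col6a6* in 19 libraries, with at most 3 and 2 counts in any library. *Col28a1*, *Col24a1*, *Col25a1*, *Col13a1* and *Col6a6* passed the filter on low counts in no comparison, *Col10a1*, *Col6a4*, *Col19a1* and *Col6a5* in some, and the remaining 35 members in all 7. The span of *Nt5dc1* covers that of *Col10a1* on the other strand. The spans of *Col18a1* and *Slc19a1* overlap by 8825 bases on opposite strands, with mean counts of 2841 and 267. Those of *Col9a3* and *Tcfl5* overlap by 234 bases on opposite strands, with means of 168 and 20.8 counts. If the counting ignored strand, reads from exons that such genes share could not be told apart. Whether their exons overlap was not examined.

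Most of the variation of collagen RNA lay between replicate numbers, not between doses. For each of the 35 members tested in all comparisons, log2(CPM + 0.5) was averaged over the 3 doses for each replicate number and over the 4 numbers for each dose. The median range of the number means was 1.07 on the log2 scale at 6 h and 0.96 at 24 h, against 0.16 and 0.25 for the dose means. Over all 15892 genes tested in 2 Gy against mock at 24 h, the median range of the number means was 0.42 and 0.63 and that of the dose means 0.14 and 0.23. The number range was above the dose range in 34 of 35 members at 6 h, the exception being *Col17a1*, and in 34 of 35 at 24 h, the exception being *Col26a1*. Number means spanned over 2 on the log2 scale in 10 of 35 members at 6 h and in 7 of 35 at 24 h, against 4.24% and 4.90% of all genes. A range over 4 means of 3 libraries tends to be wider than a range over 3 means of 4 libraries even without any effect. The share of all genes with a wider number range was not counted. These are descriptions, without a test.

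*Col3a1* and *Col6a3* differed most between replicate numbers. *Col3a1*, which joins type I collagen in the fibrils of soft tissues and vessel walls, was at 56.7 to 119 CPM in the 6 libraries of replicate 1 and at 49.2 to 80.4 in those of replicate 2, but at 2.07 to 4.37 and 1.30 to 4.61 in those of replicates 3 and 4. *Col6a3*, the large chain of the type VI microfibril, was at 24.6 to 36.9, 12.3 to 16.2, 0.330 to 1.87 and 0.209 to 0.887 CPM in replicates 1 to 4. Both genes were thus high in replicates 1 and 2 and low in replicates 3 and 4 at every dose and time, with no overlap. The share of all genes that split in this way was not counted. *Col7a1*, the collagen of anchoring fibrils, was also higher in replicates 1 and 2, with 20.7 to 43.4, 19.01 to 45.4, 3.02 to 6.87 and 2.77 to 5.32 CPM. The sum of the fibroblast and meningeal markers without *Fn1* was 46.7 to 62.2 and 54.3 to 60.8 CPM in replicates 1 and 2 and 24.6 to 34.9 and 27.5 to 41.7 CPM in replicates 3 and 4. Of the 12 markers, 6 had both higher means in replicates 1 and 2, among them *Igf2* with means of 15.2, 14.5, 1.81 and 2.80 CPM in replicates 1 to 4. The other 6 did not, such as *Mfap5* with 5.49, 4.92, 5.91 and 4.28 CPM and *Fn1* with 2104, 3541, 2827 and 1973 CPM. *Dpt* and *Lum*, at no more than 0.376 and 0.387 CPM in any library, are among the 6 markers with higher means in replicates 1 and 2. In 1 of the 12 markers, every library of replicates 1 and 2 was above every library of replicates 3 and 4. Such means were also found in 6 of 10 endothelial, 5 of 12 astrocyte and 4 of 10 oligodendrocyte markers. The same held for 3 of 10 mural, 2 of 10 neuronal and 0 of 12 microglial markers. The part of any of these cell types in the result was not tested.

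Replicate 2 stood apart in a further set. *Col14a1*, a FACIT, was at 9.10 to 11.8 CPM in its 6 libraries and at 42.1 to 71.5 CPM in the other 18. The opposite was seen for *Col9a1*, a chain of the FACIT type IX, with 3.87 to 5.94 CPM in replicate 2 and 0.286 to 1.84 CPM elsewhere. *Col4a4* was at 19.7 to 27.9 CPM in replicate 2 and at 4.16 to 13.4 CPM elsewhere. *Col11a1*, a fibrillar chain, was at 359 to 477 CPM in replicate 2 and at 77.5 to 209 CPM elsewhere. None of these ranges overlapped. How many of all genes set replicate 2 apart in this way was not counted. Across all tested genes, deviations of replicate 2 from its group means correlated between doses with r from 0.877 to 0.927. Markers of several cell types also set replicate 2 apart. All 12 microglial markers were lower in its 6 libraries than in the other 18. The summed endothelial, neuronal and fibroblast markers were each highest in replicate 2 in 6 of 6 groups, and the oligodendrocyte markers in 5 of 6. The summed astrocyte markers, and the mural sum, made up mostly of *Acta2* and *Tagln*, were highest in replicate 2 in 0 of 6 groups. Above the other 18 libraries in every library of replicate 2 were 3 of 10 mural, 2 of 10 endothelial and 2 of 10 oligodendrocyte markers. The same held for 2 of 12 fibroblast, 1 of 10 neuronal and 1 of 12 astrocyte markers. Below the other 18 were 1 of 10 oligodendrocyte and 1 of 12 astrocyte markers. The endothelial markers *Vwf* (2.20, 1.58, 2.66 and 6.08 CPM in replicates 1 to 4) and *Pecam1* (0.837, 0.420, 0.941 and 0.619 CPM) had their lowest mean in replicate 2. Among the mural markers, *Rgs5* had its highest mean in replicate 2 (1.30, 10.6, 0.569 and 1.12 CPM in replicates 1 to 4) and *Acta2* its lowest (4103, 3451, 6204 and 4021 CPM). Their part in the result was not tested.

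**Figure D2:**
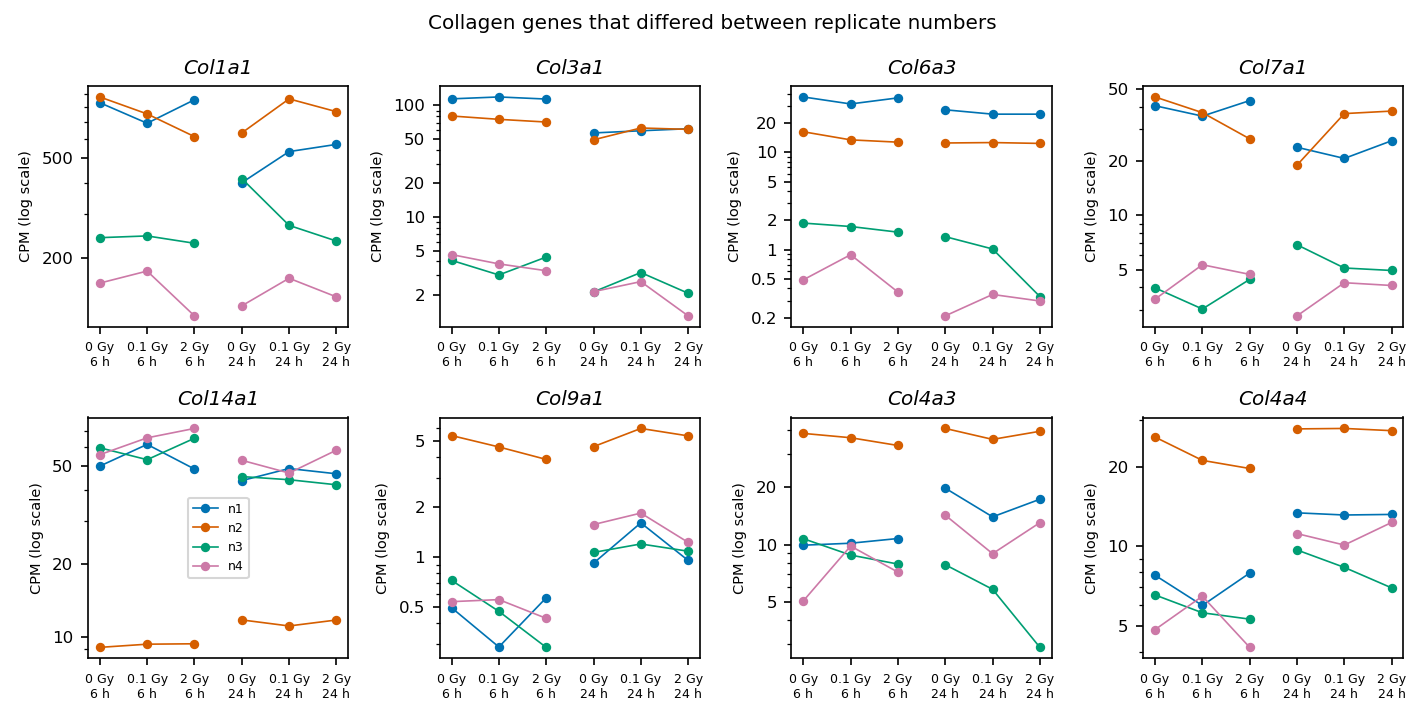
CPM (log scale) of 8 collagen genes in each of the 24 libraries, by dose and time on the horizontal axis, with lines joining the libraries of a replicate number (n1 to n4) within a time. *Col3a1*, *Col6a3* and *Col7a1* are high in n1 and n2, while *Col14a1* is low and *Col9a1*, *Col4a3* and *Col4a4* are high in n2 at every dose and time.

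**Figure D3:**
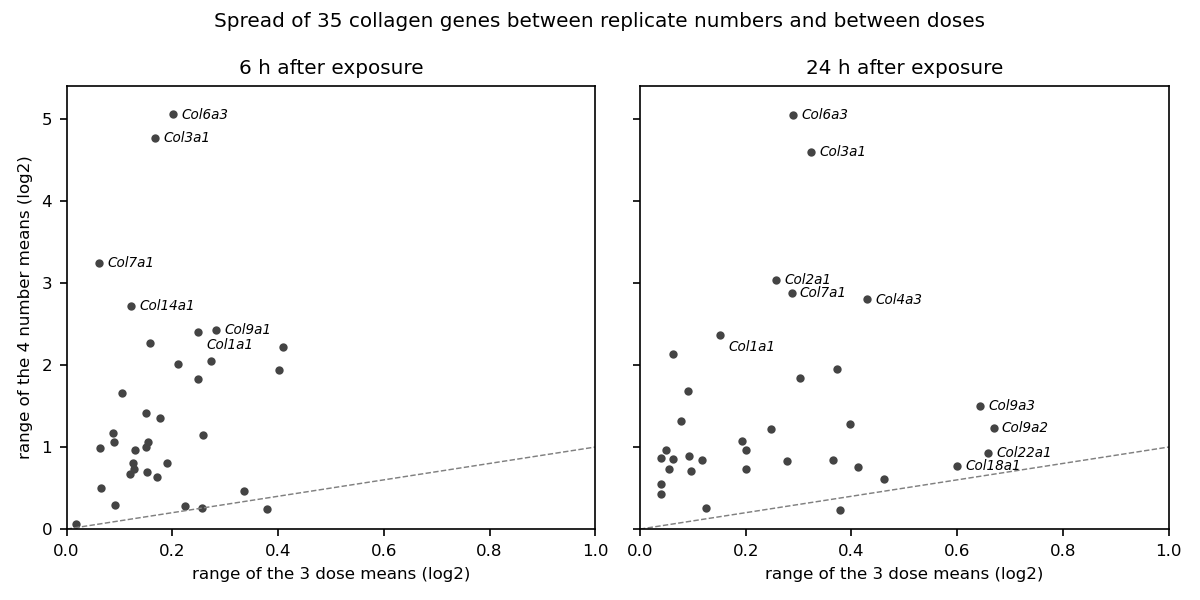
Range of the means of the 4 replicate numbers against the range of the means of the 3 doses, on the scale of log2(CPM + 0.5), for 35 collagen genes at 6 h and at 24 h, with a dashed line where both are equal. At each time 34 of 35 points lie above the line, and the dose ranges of *Col18a1*, *Col22a1*, *Col9a2* and *Col9a3* at 24 h lie farthest to the right.

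The ratio of partner chains, taken per length, differed more between replicate numbers than between doses in 13 of 14 cases (7 ratios at 2 times), the exception being *Col4a3* to *Col4a4* at 6 h, with a range of 0.220 between number means and 0.284 between dose means. Here too the number range tends to be wider even without any effect. *Col1a1* to *Col1a2* had a mean of 3.09 ± 1.07 (SD, n = 24 libraries), with 4.49 to 4.86 in the libraries of replicate 2 at 6 h and 4.67 to 4.86 at 24 h, and with 1.99 to 2.24 and 1.76 to 1.97 in those of replicate 4. *Col4a1* to *Col4a2* was steadier, with 2.48 ± 0.266. *Col6a1* to *Col6a2* was 6.01 ± 1.05, *Col5a1* to *Col5a2* 0.207 ± 0.0396 and *Col8a1* to *Col8a2* 26.4 ± 9.74 (SD, n = 24). The ratio *Col5a1* to *Col5a2* was 0.253 ± 0.0211, 0.234 ± 0.0100 and 0.228 ± 0.0313 at 0, 0.1 and 2 Gy at 6 h and 0.169 ± 0.0328, 0.185 ± 0.0215 and 0.172 ± 0.0173 at 24 h (SD, n = 4 each). Ratios per length depend on the gene lengths, which span all exons of a gene.

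All collagen genes together took 0.311 to 0.728% of the counts of a library. The share was 0.506 ± 0.176% in mock cells, 0.499 ± 0.120% after 0.1 Gy and 0.479 ± 0.126% after 2 Gy at 6 h (SD, n = 4 each). At 24 h it was 0.450 ± 0.0960%, 0.481 ± 0.157% and 0.470 ± 0.144%, respectively. Replicate 2 had the highest share in every group. The differences between doses were smaller than the spread between replicates.

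At 6 h, no change of a collagen gene with dose was detected. With edgeR's quasi-likelihood test and Benjamini-Hochberg adjustment, at an adjusted p under 0.05, 0 of 36 members were called for 0.1 Gy and 0 of 37 for 2 Gy, as was 0% of the 16020 and 15994 genes tested. At an unadjusted p under 0.05 there were also 0 members in both comparisons, and 0.15% and 1.34% of all genes. The replicate number was also used as a block, which pairs each irradiated library with its mock library. There were again 0 calls among members and 0% among all genes. DESeq2 called 0 members for either dose. Of all genes it tested, it called 0% for 0.1 Gy and 0.00333% for 2 Gy, the latter being 1 gene that was lower. At an unadjusted p under 0.05 in the blocked fits were 1 and 4 members (2.78% and 10.8%), when 3.97% and 6.88% of all genes were. The median log2 fold change of the members was -0.06 for 0.1 Gy and -0.17 for 2 Gy, with medians of -0.004 and -0.002 over all genes. The median after 2 Gy was 0.12 without mock replicate 2 and -0.36 without mock replicate 4, and that after 0.1 Gy was 0.18 without mock replicate 2, so that single libraries set its sign.

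At 24 h after 2 Gy, *Col18a1*, *Col9a3*, *Col22a1*, *Col5a3* and *Col9a2* were higher than in mock cells when libraries were paired by replicate number, by 1.39-fold (*Col5a3*) to 2.11-fold (*Col9a2*). Without the pairing, edgeR called 0 of 35 members and 0% of 15892 genes, with 2 members (*Col18a1* and *Col5a3*, 5.71%) and 3.59% of all genes at an unadjusted p under 0.05, and DESeq2 called 0 members and 0.654% of the genes it tested. With the replicate block 5 members were higher and 0 lower, that is 14.3% and 0% of 35, when 6.53% of all genes tested were called higher and 6.69% lower. Both directions together, 14.3% of members and 13.2% of all genes were called. In this fit 9 members (25.7%) and 32.3% of all genes were at an unadjusted p under 0.05. The members' median log2 fold change was 0.10 without and 0.06 with the block, against 0.01 and 0.004 over all genes, and it was -0.14 without 2 Gy replicate 2.

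*Col18a1* encodes the chain of the basement membrane collagen XVIII, from which endostatin is released. It was at 70.3, 83.1, 87.2 and 54.8 CPM in mock cells at 24 h, at 82.6, 132, 90.1 and 73.0 after 0.1 Gy and at 106, 152, 109 and 83.9 after 2 Gy. Each 2 Gy library was above the mock library of its number, but replicate 4 after 2 Gy was below replicate 3 of mock, so that the groups overlapped. The log2 fold change was 0.61 ± 0.10 (SE) in edgeR's blocked fit (adjusted p = 0.0143) and 0.62 ± 0.22 without the block (adjusted p = 0.940). At 6 h, *Col18a1* was at 133, 162, 105 and 100.2 CPM in mock cells, at 123, 151, 104 and 108 after 0.1 Gy and at 158, 159.8, 128 and 89.3 after 2 Gy. There the 2 Gy library was above its mock library in 2 of 4 pairs.

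*Col22a1*, a FACIT of tissue junctions, was at 7.89, 5.78, 12.8 and 14.2 CPM in mock cells at 24 h, at 7.66, 10.7, 15.4 and 16.9 after 0.1 Gy and at 11.4, 13.4, 17.1 and 21.5 after 2 Gy. It was higher after 2 Gy in 4 of 4 pairs, with overlap of the groups, by a log2 fold change of 0.68 ± 0.14 (SE, edgeR's blocked fit, adjusted p = 0.0228) and 0.64 ± 0.31 without the block (adjusted p = 0.940). At 6 h its range was narrow, with 8.88, 10.7, 9.58 and 10.1 CPM in mock cells, 7.97, 11.1, 7.66 and 10.5 after 0.1 Gy and 8.70, 9.94, 9.40 and 9.41 after 2 Gy.

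*Col5a3* encodes a less common chain of type V collagen. It was at 35.2, 34.3, 53.4 and 45.5 CPM in mock cells at 24 h, at 36.2, 59.8, 54.1 and 55.7 after 0.1 Gy and at 42.7, 61.4, 68.6 and 59.9 after 2 Gy. All 4 pairs were higher after 2 Gy and the groups overlapped. The log2 fold change was 0.47 ± 0.11 (SE, edgeR's blocked fit, adjusted p = 0.0287) and 0.47 ± 0.20 without the block (adjusted p = 0.940). The 6 h values were 57.5, 73.5, 28.7 and 42.6 CPM in mock cells, 43.0, 64.5, 29.2 and 52.6 after 0.1 Gy and 63.6, 64.6, 31.3 and 42.2 after 2 Gy.

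Both other calls were chains of type IX collagen, a FACIT known from cartilage. *Col9a3* was at 2.67, 7.04, 4.12 and 3.19 CPM in mock cells at 24 h, at 2.90, 11.9, 4.61 and 4.99 after 0.1 Gy and at 4.91, 13.6, 5.99 and 4.42 after 2 Gy, with a log2 fold change of 0.72 ± 0.15 (SE, edgeR's blocked fit, adjusted p = 0.0208). At 6 h it was at 5.06, 14.7, 2.56 and 4.17 CPM in mock cells, at 4.55, 14.98, 2.83 and 4.60 after 0.1 Gy and at 8.40, 14.3, 5.56 and 4.10 after 2 Gy. *Col9a2* was near the lower limit of the tested levels, with 0.167, 0.979, 0.772 and 0.732 CPM in mock cells at 24 h, 0.673, 1.99, 1.15 and 1.46 after 0.1 Gy and 0.409, 2.01, 1.46 and 1.71 after 2 Gy. Its log2 fold change was 1.07 ± 0.25 (SE, edgeR's blocked fit, adjusted p = 0.0292). Both genes were higher in 4 of 4 pairs, and without the block their fold changes of 0.77 ± 0.45 and 1.09 ± 0.57 had an adjusted p of 0.940 in edgeR. The level of *Col9a2* at 6 h was 0.942, 1.32, 0.596 and 1.42 CPM in mock cells, 1.24, 1.70, 0.707 and 1.05 after 0.1 Gy and 1.11, 1.51, 0.654 and 0.856 after 2 Gy.

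**Figure D4:**
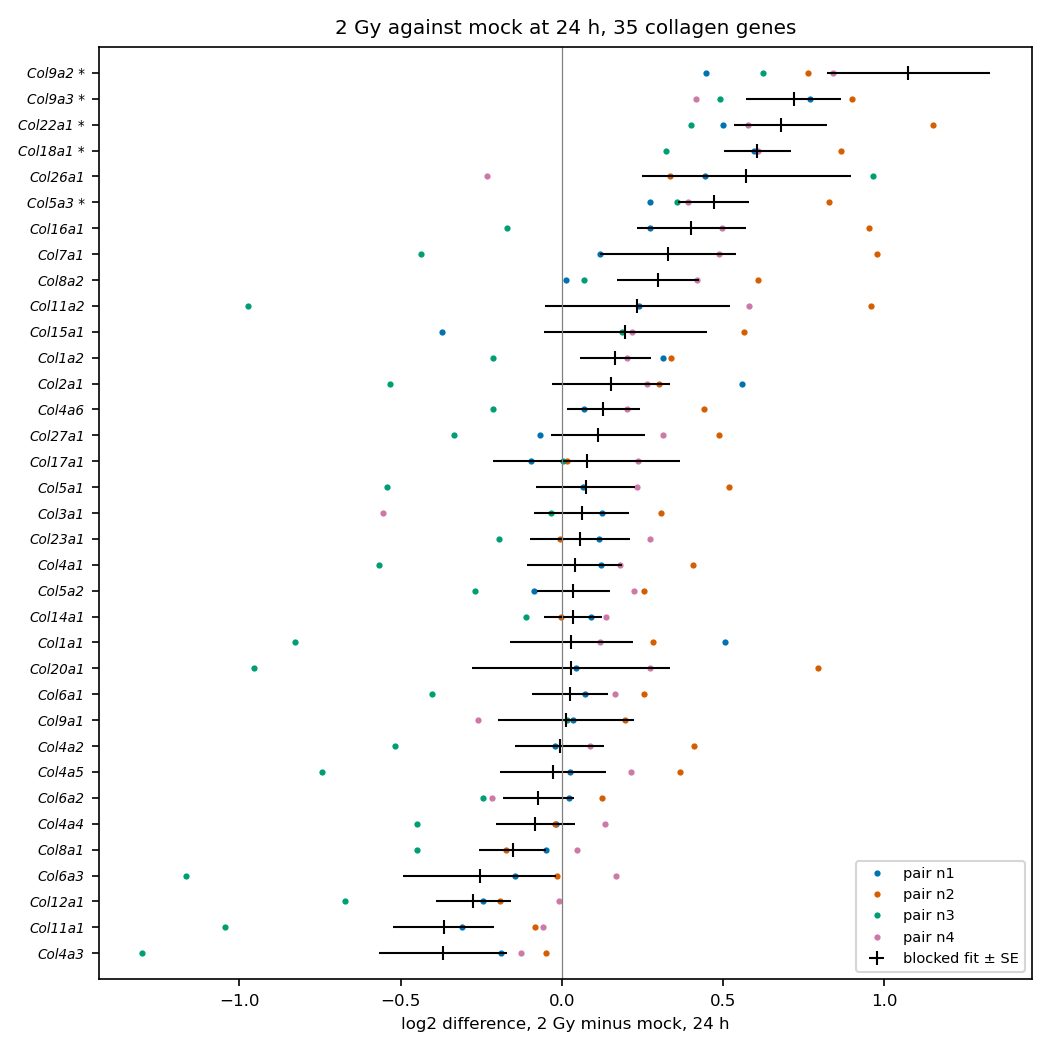
Difference of log2(CPM + 0.5) between the 2 Gy and the mock library of the same replicate number at 24 h (points, n1 to n4) and the log2 fold change of the blocked edgeR fit with its SE (black), for 35 collagen genes, with asterisks at an adjusted p under 0.05. The 5 genes with an asterisk have all 4 points to the right of 0, and pair n3 lies to the left of the other pairs in many genes.

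Leaving out replicate number 3 raised the blocked calls at 24 h after 2 Gy to 16 higher and 0 lower members, when 33.1% of all genes were called. Leaving out number 1, 2 or 4 left 0 members, when 0.892%, 0.432% and 1.54% of all genes were called. The log2 fold changes over these 4 fits stayed between 0.51 and 0.71 for *Col18a1*, 0.62 and 0.80 for *Col9a3*, 0.51 and 0.77 for *Col22a1*, 0.34 and 0.53 for *Col5a3* and 1.03 and 1.14 for *Col9a2*. Microglial markers summed to 330 to 2359 CPM in mock cells and 344 to 2618 CPM after 2 Gy at 24 h, and the fibroblast and meningeal markers without *Fn1* to 30.1 to 60.5 and 28.6 to 58.6 CPM. By pair, the microglial sum was higher after 2 Gy in 4 of 4 pairs, with 1986, 330, 2349 and 2359 CPM in mock cells and 2286, 344, 2618 and 2443 CPM after 2 Gy, as was the oligodendrocyte sum. The endothelial sum was higher in 0 of 4 pairs, and so was the fibroblast and meningeal sum with *Fn1*. The part of these cells in the result was not tested. Of the marker lists, the blocked fit called 2 of 11 astrocyte, 1 of 7 mural, 1 of 7 oligodendrocyte and 2 of 12 microglial markers higher, 1 microglial marker lower, and 0 of the fibroblast, endothelial and neuronal markers tested in this comparison, when 6.53% of all genes were called higher and 6.69% lower.

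The fold changes at 24 h moved with the GC content of the genes. Across the 15855 genes with a value, the correlation of the log2 fold change after 2 Gy with GC content was 0.56, and it was 0.62 across 35 members, which share their libraries and are not independent. The members were richer in G and C than the genes tested, with a median of 56.3% against 50.5%, and *Col18a1* (60.3%), *Col5a3* (60.4%), *Col9a3* (59.6%) and *Col9a2* (63.5%) were above both, while *Col22a1* was at 55.9%. With an offset for GC content and length in the blocked fit, 3 members were called higher, when 1.46% of all genes were. These were *Col18a1* with a log2 fold change of 0.40 ± 0.07 (SE, adjusted p = 0.0220 in edgeR), *Col22a1* with 0.62 ± 0.12 (adjusted p = 0.0289) and *Col1a2* with 0.39 ± 0.08 (adjusted p = 0.0368). *Col9a3*, *Col5a3* and *Col9a2* were no longer called, with log2 fold changes of 0.43, 0.26 and 0.71. The part of GC content in these results was not tested further.

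**Figure D5:**
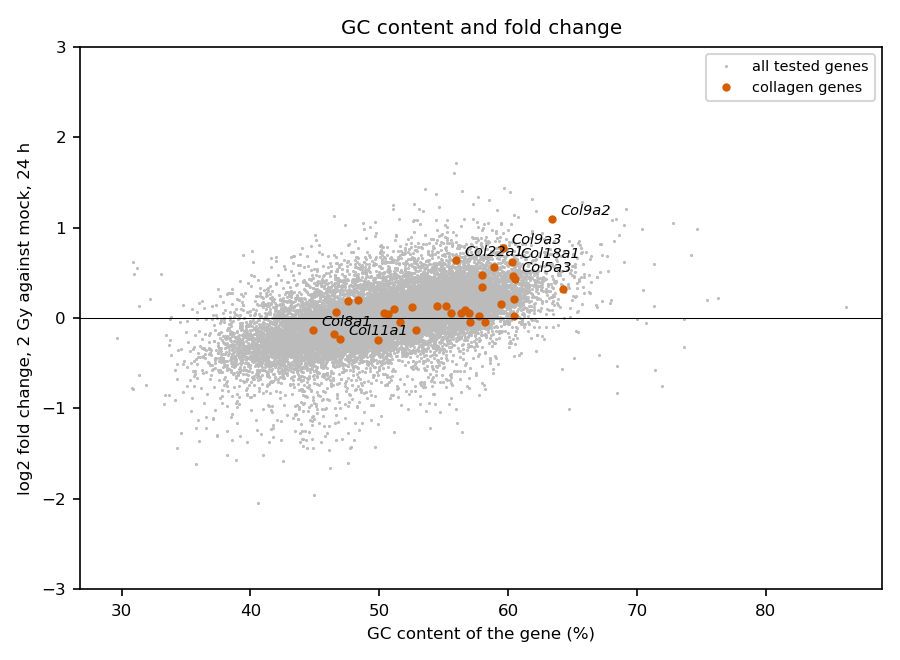
Log2 fold change of 2 Gy against mock at 24 h (edgeR without the block) against the GC content of the gene in percent, for 15855 tested genes (grey) and 35 collagen genes (orange). Both sets rise from left to right, and *Col9a2*, *Col9a3*, *Col18a1* and *Col5a3* lie on the side of high GC content.

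At 24 h after 0.1 Gy, *Col9a2* was higher and *Col4a3* lower than in mock cells with the block, and no member was called without it. Without the block, edgeR called 0 of 35 members and 0% of 16183 genes, with 0 members and 1.49% of all genes at an unadjusted p under 0.05, and DESeq2 called 0. With the block, 2 of 35 members (5.71%) were called, when 6.84% of all genes were. In that fit 14 members (40%) and 28.1% of all genes were at an unadjusted p under 0.05. Over the same pairs the summed microglial and oligodendrocyte markers were higher after 0.1 Gy in 4 of 4 and the neuronal markers in 0 of 4, and the log2 fold change correlated with GC content by 0.59 across all genes and 0.65 across members. The part of either in the result was not tested. *Col9a2* had a log2 fold change of 0.98 ± 0.27 (SE, edgeR's blocked fit, adjusted p = 0.0464), from the CPM given above, and 0.99 ± 0.51 without the block (adjusted p = 0.943). *Col4a3*, a type IV chain best known from the glomerular basement membrane, was at 19.8, 40.8, 7.83 and 14.3 CPM in mock cells, at 13.98, 35.8, 5.81 and 8.95 after 0.1 Gy and at 17.3, 39.4, 2.87 and 13.03 after 2 Gy. It was lower in 4 of 4 pairs with largely overlapping groups, and its log2 fold change was -0.45 ± 0.12 (SE, edgeR's blocked fit, adjusted p = 0.0382) and -0.36 ± 0.63 without the block (adjusted p = 0.966), which became 0.20 when mock replicate 2 was left out. At 6 h, *Col4a3* was at 9.92, 38.4, 10.7 and 5.05 CPM in mock cells, at 10.2, 36.5, 8.80 and 9.82 after 0.1 Gy and at 10.8, 33.2, 7.89 and 7.15 after 2 Gy.

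Leaving out replicate number 3 raised these blocked calls to 9 higher and 2 lower members, when 23.2% of all genes were called, and leaving out number 1, 2 or 4 left 0, when 7.18%, 0.13% and 0.0987% of all genes were called. With the GC and length offset, *Col1a2* was called (log2 fold change 0.45 ± 0.10, SE, adjusted p = 0.0444 in edgeR), when 0.372% of all genes were called higher. *Col9a2*, with a log2 fold change of 0.64, and *Col4a3* were not called with the offset. The neighbour *Col4a4*, which shares the 71 bases shown above with *Col4a3*, was at 13.4, 27.8, 9.70 and 11.2 CPM in mock cells at 24 h and at 13.2, 27.9, 8.34 and 10.1 CPM after 0.1 Gy. The ratio of *Col4a3* to *Col4a4* per length was 1.34 ± 0.334 in mock cells, 1.04 ± 0.265 after 0.1 Gy and 1.12 ± 0.486 after 2 Gy at 24 h (SD, n = 4), and its ranges overlapped.

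In 2 Gy against 0.1 Gy at 24 h, 0 of 35 members and 0% of 16002 genes were called by edgeR without or with the block. DESeq2 called 0 members and 0.215% of the genes it tested. With the block, 5.71% of members (*Col18a1* and *Col22a1*) and 4.94% of all genes were at an unadjusted p under 0.05, and the log2 fold changes of these genes were 0.27 ± 0.08 and 0.35 ± 0.11 (SE). The interaction of 2 Gy and time asks whether the change after 2 Gy differed between 24 h and 6 h. Without the block it gave 0 calls among 39 members and 0% of 16866 genes in edgeR, with 0 members and 4.9% of all genes at an unadjusted p under 0.05. DESeq2 called 0 members and 0.0482% of the genes it tested. With the block *Col22a1* was called, with an interaction of 0.75 ± 0.18 on the log2 scale (SE, adjusted p = 0.0404 in edgeR), when 6.78% of all genes were called. In that fit 9 members (23.1%) and 30.8% of all genes were at an unadjusted p under 0.05. The call of *Col22a1* was kept without replicate number 3, when 23.4% of all genes were called. It was lost without number 1, 2 or 4, when 0%, 0% and 0.814% of all genes were called. Over these 4 blocked edgeR fits its interaction was between 0.575 and 0.870, with adjusted p from 0.0103 to 0.286. With all 4 numbers the interaction was 0.65 ± 0.14 (adjusted p = 0.0450) with the GC and length offset, when 1.44% of all genes were called. *Col18a1* missed the threshold with 0.53 ± 0.15 (SE, blocked edgeR fit, adjusted p = 0.0511).

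Between 6 h and 24 h in mock cells, most collagen genes had a lower value at 24 h, but edgeR without a block called no member. The median log2 fold change of the 37 members tested was -0.38, against -0.02 over all genes, with 27 below and 10 above 0. It was -0.11 without mock replicate 2 at 6 h, -0.12 without mock replicate 1 at 6 h and -0.24 without mock replicate 4 at 24 h. Marker lists had lower medians too, with -0.62 for endothelial, -0.35 for mural, -0.34 for microglial and -0.29 for oligodendrocyte markers, and the log2 fold change correlated with GC content by -0.32 across all genes and -0.50 across 37 members. The part of either in the result was not tested. edgeR called 0 members when 6.7% of 15887 genes were called, 3.46% of all in the lower direction. At an unadjusted p under 0.05 were 5 members (13.5%), when 24.7% of all genes were. *Col18a1* fell from 125 ± 28.5 to 73.9 ± 14.6 CPM (SD, n = 4), with groups that did not overlap and a log2 fold change of -0.78 ± 0.20 (SE, adjusted p = 0.0516 in edgeR). *Col27a1*, a fibrillar chain, went from 25.9 ± 6.98 to 15.4 ± 2.26 CPM and *Col8a2* from 26.8 ± 11.99 to 13.3 ± 1.78 CPM (SD, n = 4), again without overlap of the groups (adjusted p = 0.0596 and 0.0662 in edgeR). The share of all genes without such overlap was not counted. DESeq2 called *Col18a1*, *Col27a1* and *Col8a2* lower, when 5.1% of all genes it tested were, and edgeR called 2 members lower when mock replicate 3 at 24 h was left out, when 9.4% of all genes were called lower. With the replicate block edgeR called 6 members lower, when 8.02% of all genes were, but the numbers were not taken to pair libraries across times. Time after mock exposure and time in culture cannot be told apart.

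The proteins that process collagen were examined as lists of 33 genes of collagen modification, secretion and cross-linking, 10 collagen receptors and 15 other basement membrane genes. All 33 processing genes were tested at 24 h, and none of the 3 lists had a call in a dose comparison without the block. With the block at 24 h after 2 Gy, *P3h3*, a member of the prolyl 3-hydroxylase family, was higher with a log2 fold change of 0.48 ± 0.10 (SE, adjusted p = 0.0204 in edgeR). *Lox*, which starts cross-linking by oxidising lysines, was lower with -0.72 ± 0.16 (adjusted p = 0.0270), as were the lysyl hydroxylase *Plod2* with -0.41 ± 0.10 (adjusted p = 0.0339) and *Loxl2* with -0.34 ± 0.09 (adjusted p = 0.0413). *Lox* was at 269, 428, 98.3 and 85.4 CPM in mock cells and at 177, 272, 37.1 and 72.1 CPM after 2 Gy, lower in each pair with overlapping groups. Thus 1 of 33 processing genes was higher and 3 lower, when 6.53% of all genes were higher and 6.69% lower, and the list's median log2 fold change was 0.08 against 0.004 over all genes.

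Of 9 receptors tested, the collagen-binding kinase *Ddr1* was higher (0.45 ± 0.12, SE, adjusted p = 0.0378 in edgeR) and the integrin subunit *Itga1* lower (-0.34 ± 0.08, adjusted p = 0.0330) in the same blocked comparison, and the median of the list was -0.20. Of 14 other basement membrane genes tested, 0 were higher and 2 lower, which were the laminin chain *Lama2* (-0.40 ± 0.09, adjusted p = 0.0289 in edgeR) and the nidogen *Nid1* (-0.55 ± 0.15, adjusted p = 0.0437), with a median of -0.13. The shares of all genes called in this fit, given above, apply to these counts too, and nothing particular to the lists can be read from them. After 0.1 Gy at 24 h, *P3h3* was higher (0.43 ± 0.11, SE, adjusted p = 0.0382 in edgeR's blocked fit) and *Lox* (-0.54 ± 0.09, adjusted p = 0.0262) and *Nid1* (-0.36 ± 0.09, adjusted p = 0.0367) were lower. These were the only calls among the 33 processing genes, 9 receptors and 15 basement membrane genes tested, when 2.34% of all genes were called higher and 4.5% lower. At 6 h no gene of these lists was called for a dose, with or without the block.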

How the data were processed

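The authors deposited raw counts per gene as whole numbers, 1 table for each of the 24 libraries, not normalized or pooled. Per the labels the build was mm10. The aligner, the counting tool and the use of strand are not given in the sources used here. Of the 49315 identifiers, 49056 are in GENCODE M21, and 43 of 44 members had the same span there.

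The tests used edgeR 4.0.16 in R 4.3.3 (TMM, filter on low counts, quasi-likelihood test, Benjamini-Hochberg adjustment over all tested genes) and DESeq2 1.42.0 as an alternative, in 7 comparisons, at an adjusted p under 0.05. CPM used TMM-scaled library sizes, and RPKM divided CPM by the gene length given beside the counts. GC content came from GENCODE transcripts, and its offset used splines with 5 degrees of freedom. Fits were tested on simulated data.

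Deviations of same-numbered libraries from their group means correlated with r from 0.540 to 0.927 in the dose comparisons, so that the numbers were taken to pair libraries within a time. The sources used here give 4 biological repeats per condition and do not say which isolation of cells each number stands for.

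Every member may be named. Values for each library were given for members called in a dose comparison with or without the block and for the 10 members with the highest mean RPKM, and from the other lists up to 5 genes called in a dose comparison were named. *Col3a1*, *Col6a3*, *Col7a1*, *Col14a1*, *Col9a1*, *Col4a4* and *Col11a1* were picked for description after their values were seen. The members, the lists of processing, receptor and basement membrane genes and the 7 lists of cell type markers, written from general knowledge, were chosen with earlier results of these data known. Alternatives were a replicate block, other normalizations and filters, DESeq2, all libraries in a single fit, a minimum fold change, the GC and length offset, and leaving out libraries or replicate numbers. No library pair of a group agreed within sampling noise (lowest chi-square per degree of freedom 25.9).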

Additional observations from a re-analysis of the deposited data

Results flagged for a closer look

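The 16 members given for each library and the summed collagen share were tested in each of the 6 groups. By Dixon's test, the highest or lowest library lay far from the other 3 in 11 of these 102 sets of 4 values. All 11 were sets of a member's CPM. Chance does this in about 1 in 20 independent sets. These sets share their libraries and are not independent, so that the 11 cannot be set against that rate. The library was replicate 2 in all 11, and it was the highest. *Col4a3* was at 38.44 CPM in mock cells at 6 h (others 5.05 to 10.7), at 36.48 after 0.1 Gy at 6 h (others 8.80 to 10.2) and at 33.2 after 2 Gy at 6 h (others 7.15 to 10.8). After 0.1 Gy at 6 h, *Col9a3* was at 14.98 CPM (others 2.83 to 4.60), *Col8a1* at 684.6 (others 539 to 562), *Col5a2* at 1367 (others 814 to 866), *Col4a1* at 649.2 (others 482 to 503), *Col4a2* at 280.4 (others 154 to 163) and *Col5a1* at 290.7 (others 166 to 180). *Col12a1* was at 728.9 CPM in mock cells at 24 h (others 425 to 468), and *Col4a2* at 232.2 CPM after 2 Gy at 24 h (others 117 to 136).

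The change of *Col22a1* after 2 Gy differed between 24 h and 6 h by 0.754 on the log2 scale in edgeR's fit with the replicate block (adjusted p = 0.0404), and by the unblocked fit this difference was not called.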

How the results depend on the processing

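Without a replicate block, edgeR called 0 members in each of the 7 comparisons. With the replicate block the counts became 2 (0.1 Gy, 24 h), 5 (2 Gy, 24 h), 1 (interaction) and 6 (24 h against 6 h in mock), and they stayed at 0 in the other comparisons. With the block and a GC content and length offset they were 1, 3, 1 and 11. In the time comparison 15.3% of all genes were called with the block and 27.1% with the offset. Across times the deviations of same-numbered mock libraries correlated with r = 0.410, 0.825, 0.0623 and 0.518 for replicates 1 to 4, and as replicate 3 was under the limit of 0.1 the numbers were not taken as pairs there. Leaving out a replicate number from the blocked fit gave 0 to 11 (0.1 Gy, 24 h), 0 to 16 (2 Gy, 24 h), 0 to 12 (interaction) and 1 to 23 (time) members, the highest each time without number 3, when 23.2%, 33.1%, 23.4% and 45.4% of all genes were called. Over the other numbers 0.0987 to 7.18%, 0.432 to 1.54%, 0 to 0.814% and 3.71 to 7.09% of all genes were called. In the time comparison DESeq2 called 3 members (11.2% of all genes), scaling by library size alone 1 (5.95%), all 24 libraries in a single fit 2 (14.3%), and leaving out a library 0 to 2 (1.04 to 18.6%). The unblocked log2 fold change of *Col4a3* after 0.1 Gy at 24 h ranged from -1.128 to 0.2027 when a library was left out and changed sign in that range. Without length division, the ratio of *Col1a1* to *Col1a2* was 1.63, of *Col4a1* to *Col4a2* 2.80 and of *Col6a1* to *Col6a2* 3.16. Where no alternative's construction shows it, the cause was not tested. The alternative with the block and GC offset was also set beside the blocked counts after seeing the data. Low counts kept *Col28a1*, *Col24a1*, *Col25a1*, *Col13a1* and *Col6a6* out of all comparisons, with at most 12, 16, 13, 3 and 2 counts in a library.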
